A study of Mus musculus with 9 samples.

Results

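Arg1, Marco and Alox15 are 3 genes of myeloid cells, and 1 probe of the array could be named for each. The probes were chosen by measured values: the study listed them because they passed its thresholds in both the DSS vs Control and the DSS+PAMK vs DSS comparison on these same arrays. They are 3 of the 176 genes, and their probes 3 of the 166924 probes, that could be named or counted here. Their levels and differences are therefore given as a description, with no test.

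The arrays measured colonic RNA of male C57BL/6J mice aged 10 weeks, with 3 samples in each of 3 groups. The Control mice drank distilled water and were gavaged with saline at 1 ml/100 g. The DSS mice drank 3% dextran sulfate sodium (DSS), which injures the colonic epithelium, for 7 days and were then gavaged with saline on days 8 to 14. In the DSS+PAMK group the same DSS course was followed, over those days, by gavage of 200 mg/kg PAMK, a polysaccharide of Atractylodes macrocephala Koidz. The comparison of DSS with Control asks what remained changed in the colon after the DSS course, and that of DSS+PAMK with DSS asks what differed with the polysaccharide. Whole colon was used, so more cells of a type and more RNA per cell cannot be told apart. The named epithelial markers Fcgbp, a mucus protein of goblet cells, and Slc26a3, a chloride transporter of the surface epithelium, were well above background on all 9 arrays.

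Arginase 1, the product of Arg1, splits arginine into ornithine and urea, and it draws on the same arginine that nitric oxide synthase uses. In the mouse it is widely used as a mark of macrophages activated by IL-4 and IL-13, and suppressive myeloid cells carry it as well. Marco encodes a class A scavenger receptor with a collagenous stalk, which binds bacteria and particles at the surface of some macrophages. Alox15 encodes a lipoxygenase that adds oxygen to arachidonic and linoleic acid, and eosinophils and resident macrophages of the peritoneum are known for it.

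The letters of the 3 probes are shown because every value that follows is the light from these oligonucleotides, each 60 bases long and present at 1 spot per array. They are written in lower case as the array design gives them.
Arg1: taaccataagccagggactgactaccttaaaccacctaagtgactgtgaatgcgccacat
Marco: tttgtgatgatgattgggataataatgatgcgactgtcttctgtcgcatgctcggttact
Alox15: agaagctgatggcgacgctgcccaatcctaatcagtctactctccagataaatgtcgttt
The Arg1 and Alox15 probes hold 28 G or C bases each and the Marco probe holds 25. No other probe of the array shared a run of 20 bases with any of them, on either strand. Probes of the same genes in other stretches of the transcripts could not be looked for here, so no second reading of any of the 3 is given. The files do not place the probes on the genome, and their position in exons was not analysed here. In RefSeq's annotation of the mouse assembly GRCm38.p6, Arg1 spans chr10:24915207-24927470, Marco chr1:120474538-120505024 and Alox15 chr11:70344147-70390538.

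The intensities are given below as log2 of the processed intensity after quantile normalization over the 9 arrays. A spot is called well above background by the scanner software when it clears the local background and its noise, and between 55.4% and 72.2% of probe spots did so on an array. The arrays lay on 3 slides. Slide 1 held the 3 Control arrays and DSS 1, slide 2 held DSS 2, DSS 3, DSS+PAMK 1 and DSS+PAMK 2, and slide 3 held DSS+PAMK 3. Control and DSS+PAMK never shared a slide, so that comparison has no value within a slide and is linked across slides only through the DSS arrays.

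Arg1 was well above background on all 9 arrays. Its normalized log2 intensity was 10.26, 8.55 and 9.46 on the Control arrays 1 to 3, and 11.81, 12.65 and 10.60 on the DSS arrays. On the DSS+PAMK arrays it was 8.98, 9.67 and 8.38. The 3 DSS arrays thus stood above the other 6, and the Control and DSS+PAMK arrays overlapped. Before normalization the processed intensity was 378 to 927 in the Control group, 1807 to 7339 in the DSS group and 395 to 803 in the DSS+PAMK group.

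The mean log2 level of Arg1 was 9.42 ± 0.85 (SD, n = 3) in the Control group, 11.68 ± 1.03 (SD, n = 3) in the DSS group and 9.01 ± 0.64 (SD, n = 3) in the DSS+PAMK group. DSS minus Control was 2.26 on the log2 scale with a standard error of 0.77, which is 4.80-fold. DSS+PAMK minus DSS was -2.68 with a standard error of 0.70, and the DSS level was 6.39 times that of the DSS+PAMK group. The gap between the lowest DSS array and the highest Control array was only 0.34, while that to the highest DSS+PAMK array was 0.93. DSS+PAMK minus Control was -0.41 with a standard error of 0.62, a difference smaller than its error, and it turned to 0.0042 without the array Control 1 and to 0.0816 with slide as a fixed block in the fit.

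**Figure D1:**
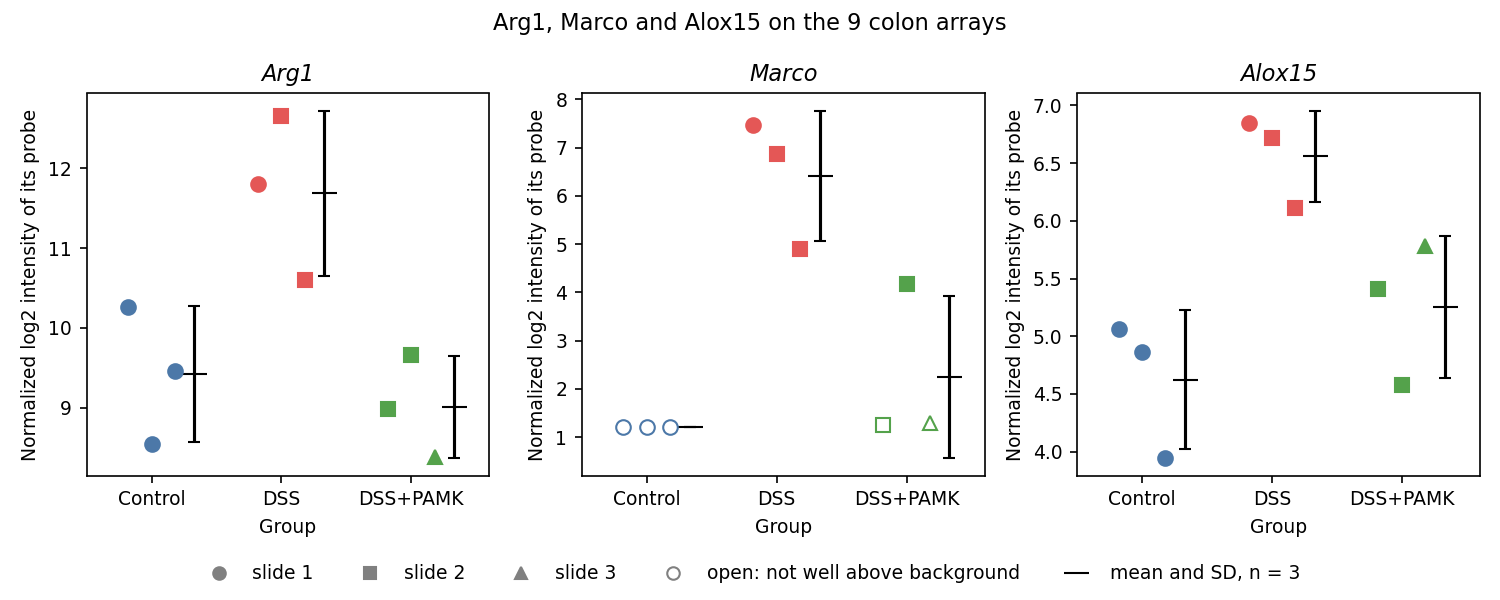
Normalized log2 intensity of the Arg1, Marco and Alox15 probes (y axis, its own range in each panel) on the 3 arrays of each group (x axis). Symbols give the slide, open symbols are spots not well above background, and the black bars are the mean and SD of 3 arrays. The 3 DSS arrays lie above the other 6 for each gene, and Marco is open on all 3 Control arrays and on 2 of the DSS+PAMK arrays.

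Marco was the gene that went from undetected to detected. Its spot stood well above background on none of the 3 Control arrays, on all 3 DSS arrays and on 1 of the 3 DSS+PAMK arrays. On the DSS arrays 1 to 3 the normalized log2 intensity was 7.47, 6.87 and 4.89, from processed intensities of 146, 128 and 32.4. The scanner software gives a spot below background a surrogate value, which was 1.20 after normalization on each Control array, so the Control values have no order and their spread of 0.00 is no biological spread.

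DSS+PAMK 2 was the array of that group with a Marco signal, at 4.18 on the log2 scale. Its processed intensity was 14.3 with a spot error of 2.78, and the lowest processed intensity well above background on that array was 11.5. DSS+PAMK 1 and DSS+PAMK 3 had surrogate values, which were 1.25 and 1.29 after normalization. A Marco level close to the detection limit on 1 array and below it on the other 2 thus made up the DSS+PAMK group.

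The level of Marco in the DSS group was 6.41 ± 1.35 (SD, n = 3). It was 10.0-fold that of the Control group, for which the lowest intensity well above background on each array stood in. This fold compares group means and is no strict lower bound. With another background correction, normexp, described below, DSS minus Control was 1.51 on the log2 scale. The measured means differed by 5.21 on the log2 scale, a value that rests on the surrogates. Against the DSS+PAMK group, with a mean of 2.24 ± 1.68 (SD, n = 3) and 1 array measured, DSS+PAMK minus DSS was -4.17 with a standard error of 1.25. With dim values raised to the lowest intensity well above background of their array, these differences were 3.32 and -2.69. No fold is given for DSS+PAMK against Control, where 1 array of 6 was well above background. All 3 genes passed the filter on dim probes, which asks that all arrays of 1 or more groups be well above background. Marco passed it through the DSS group alone, so that its Control values had to be lower.

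Alox15 was dim but was well above background on all 9 arrays. Its normalized log2 intensity was 5.07, 4.87 and 3.94 on the Control arrays, and 6.85, 6.71 and 6.11 on the DSS arrays. On the DSS+PAMK arrays it was 5.41, 4.58 and 5.78. The DSS arrays were again the 3 highest, and DSS+PAMK 3, the array nearest to them, lay 0.33 below the lowest. The processed intensity was 16.5 to 41.6 in the Control group, 75.2 to 114 in the DSS group and 18.96 to 67.8 in the DSS+PAMK group.

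The mean log2 level of Alox15 was 4.62 ± 0.60 (SD, n = 3) in the Control group, 6.56 ± 0.39 (SD, n = 3) in the DSS group and 5.26 ± 0.61 (SD, n = 3) in the DSS+PAMK group. DSS minus Control was 1.93 with a standard error of 0.41, which is 3.82-fold. DSS+PAMK minus DSS was -1.30 with a standard error of 0.42, and the DSS level was 2.47 times that of the DSS+PAMK group. DSS+PAMK minus Control was 0.63 with a standard error of 0.50, and it was 0.81 with slide as a fixed block. In the order of means Alox15 ran DSS, DSS+PAMK, Control, and Arg1 ran DSS, Control, DSS+PAMK, where for both genes the arrays of the lower pair of groups overlapped. For Arg1 the difference of that pair was smaller than its pooled SD of 0.76, and for Alox15 it was about as large as its pooled SD of 0.61.

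**Figure D2:**
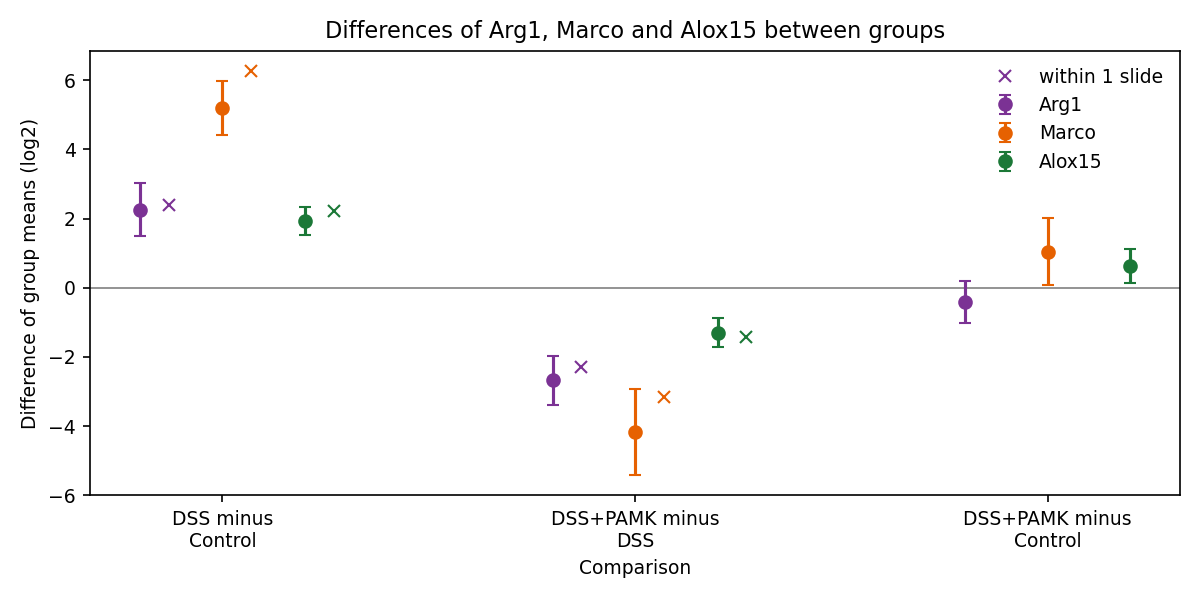
Difference of group means on the log2 scale (y axis) of Arg1, Marco and Alox15 in the 3 comparisons (x axis). Points are all arrays with the standard error from the spread within groups, and crosses are the arrays of 1 slide (slide 1 for DSS minus Control, slide 2 for DSS+PAMK minus DSS). The points are above 0 in the first comparison and below 0 in the second. The crosses have the same sign as the points, as they must where every DSS array lies above all others.

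The differences had the same direction within a slide. That direction was fixed in advance, since for each gene every DSS array lay above all arrays of the other groups. A slide effect was not tested by it. On slide 1, DSS 1 minus the mean of the 3 Control arrays was 2.38 for Arg1, 6.27 for Marco and 2.23 for Alox15. On slide 2, the mean of DSS+PAMK 1 and 2 minus that of DSS 2 and 3 was -2.30 for Arg1, -3.17 for Marco and -1.42 for Alox15. The Marco values again rest on surrogates.

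Against all 99544 probes that passed the filter, the 3 genes stood near the ends of the range, as the way they were listed requires. Ranked by DSS minus Control from the highest, Marco was at position 10, Arg1 at 199 and Alox15 at 322. Ranked by DSS+PAMK minus DSS from the lowest, Marco was at position 12, Arg1 at 69 and Alox15 at 723. All of the 3 had DSS arrays that did not overlap the Control arrays, which held in the higher direction for 10.5% of all tested probes. All of the 3 also had DSS+PAMK arrays below all DSS arrays, which held for 6.53% of tested probes. Nothing is read from these counts, since the same arrays chose the genes.

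Among the arrays of a group, Arg1 and Marco varied more alike than either did with Alox15. DSS 3 was the lowest DSS array for each of them, at 1.09 below the group mean for Arg1, 1.52 below for Marco and 0.45 below for Alox15. DSS 2 was the highest for Arg1, while DSS 1 was the highest for Marco and Alox15. In the DSS+PAMK group, DSS+PAMK 2 was the highest array for Arg1 and Marco and the lowest for Alox15. Over the 9 arrays, Pearson's r of the log2 levels was 0.875 between Arg1 and Marco, 0.672 between Arg1 and Alox15 and 0.746 between Marco and Alox15. After the group means were removed it was 0.64, 0.01 and -0.22, so for the pairs with Alox15 little of the likeness lay within groups. These r describe 9 arrays that share groups and scaling, and 5 of the 9 Marco values are surrogates.

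Other genes of the same pathways could be followed only where a probe could be linked to a symbol. The study paired symbols with 183 probes, all of them listed for a difference on these arrays, so counts among them are not independent evidence of a direction. Called here means a change of 2-fold or more with an unadjusted limma p no higher than 0.05, the thresholds of the methods. Of all tested probes, 1.98% were called higher and 1.08% lower in DSS vs Control, 0.644% higher and 1.06% lower in DSS+PAMK vs DSS, and 1.65% higher and 1.02% lower in DSS+PAMK vs Control. Of the 176 named genes, 121 were called higher and 27 lower in DSS vs Control with a median difference of 1.57, and 30 higher and 105 lower in DSS+PAMK vs DSS with a median of -1.16. In DSS+PAMK vs Control 27 were called higher and 11 lower, with a median of 0.42. Scaling to the 75th percentile in place of quantile normalization turned the balance in the comparisons with Control, to 1353 higher and 3085 lower in DSS vs Control and 837 higher and 4190 lower in DSS+PAMK vs Control. At a Benjamini-Hochberg adjusted p no higher than 0.05, limma called 160 probes higher and 15 lower in DSS vs Control. It called 0 in DSS+PAMK vs DSS, where 7190 probes had an unadjusted p no higher than 0.05 and the smallest adjusted p was 0.628, and 0 in DSS+PAMK vs Control, where 13867 probes did and the smallest was 0.0998. The methods' t-test called 0 after adjustment in each of the 3 comparisons.

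Of the 27 genes listed for arginine and polyamine metabolism, Arg2 and Nos2 could be matched, and both were called higher in DSS vs Control and lower in DSS+PAMK vs DSS. The study had listed both genes for both of these comparisons, so the calls follow from that listing. Arg2, the mitochondrial arginase, had log2 levels of 6.97, 5.49 and 6.44 on the Control arrays, 7.27, 8.24 and 8.69 on the DSS arrays and 6.93, 6.55 and 6.56 on the DSS+PAMK arrays. DSS minus Control was 1.77 with a limma standard error of 0.44 (adjusted p = 0.163), and DSS+PAMK minus DSS was -1.39. DSS 3 was the highest DSS array for Arg2 and the lowest for Arg1.

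Nos2, the inducible nitric oxide synthase, takes the same arginine to nitric oxide. Its log2 level was 4.03, 3.73 and 2.52 on the Control arrays, of which 2 were well above background, and 8.28, 7.33 and 6.49 on the DSS arrays. On the DSS+PAMK arrays it was 4.44, 6.24 and 4.40. DSS minus Control was 3.94 with a limma standard error of 0.64 (adjusted p = 0.0666), and DSS+PAMK minus DSS was -2.34. Nos2 was also called higher in DSS+PAMK vs Control, by 1.60, where Arg1 and Arg2 differed by -0.41 and 0.38. As for Arg1 and Marco, DSS+PAMK 2 was the highest array of its group.

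Of the 35 genes listed for lipoxygenase and arachidonate metabolism, Ptgs2, Pla2g7, Pla2g4c and Fpr2 could be matched, and no other lipoxygenase. In DSS vs Control 3 of them were called higher and 1 lower, with a median difference of 1.59, and in DSS+PAMK vs DSS 2 were called lower and 0 higher, with a median of -0.91. The study had listed Ptgs2 and Fpr2 for both comparisons, and Pla2g7 and Pla2g4c for DSS vs Control only. These counts follow that listing. Ptgs2, the inducible cyclooxygenase, was higher by 1.79 in DSS than in Control (adjusted p = 0.173) and DSS+PAMK minus DSS was -1.52. Fpr2, a receptor for formyl peptides and lipoxin, differed by 3.34 (adjusted p = 0.0817) and -2.30. Pla2g7, the platelet activating factor acetylhydrolase that macrophages secrete, differed by 1.39 in DSS vs Control (adjusted p = 0.0351) and by -0.31 in DSS+PAMK vs DSS, which was not called. Its DSS+PAMK arrays, at 8.44, 8.43 and 8.25, stayed above the Control arrays at 7.15, 7.41 and 7.31. Pla2g4c, a cytosolic phospholipase, ran the other way, with 10.30, 10.18 and 9.16 on the Control arrays, 4.45, 4.99 and 4.37 on the DSS arrays, and 9.26, 4.27 and 6.19 on the DSS+PAMK arrays.

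Cd163l1 was the only match among the 24 scavenger receptors listed beside Marco. It differed by 1.62 in DSS vs Control (adjusted p = 0.135) and by -1.22 in DSS+PAMK vs DSS, and it was well above background on all 9 arrays. The study had listed Cd163l1 for both of these comparisons. Of the 20 genes listed for alternative macrophage activation, with which Arg1 is usually grouped, none could be matched to a probe here. Of the 22 for classical activation 4 could be matched, and all 4 were called higher in DSS vs Control and lower in DSS+PAMK vs DSS, with medians of 3.24 and -2.32. The study had listed all 4 for both comparisons, so these calls follow from that listing and say nothing about the type of activation. They were Nos2, Ptgs2, Gpr84, a receptor for medium chain fatty acids, and Ido1, which degrades tryptophan. Gpr84 differed by 2.97 and -2.31 in the 2 comparisons, and Ido1 by 3.51 and -2.39.

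**Figure D3:**
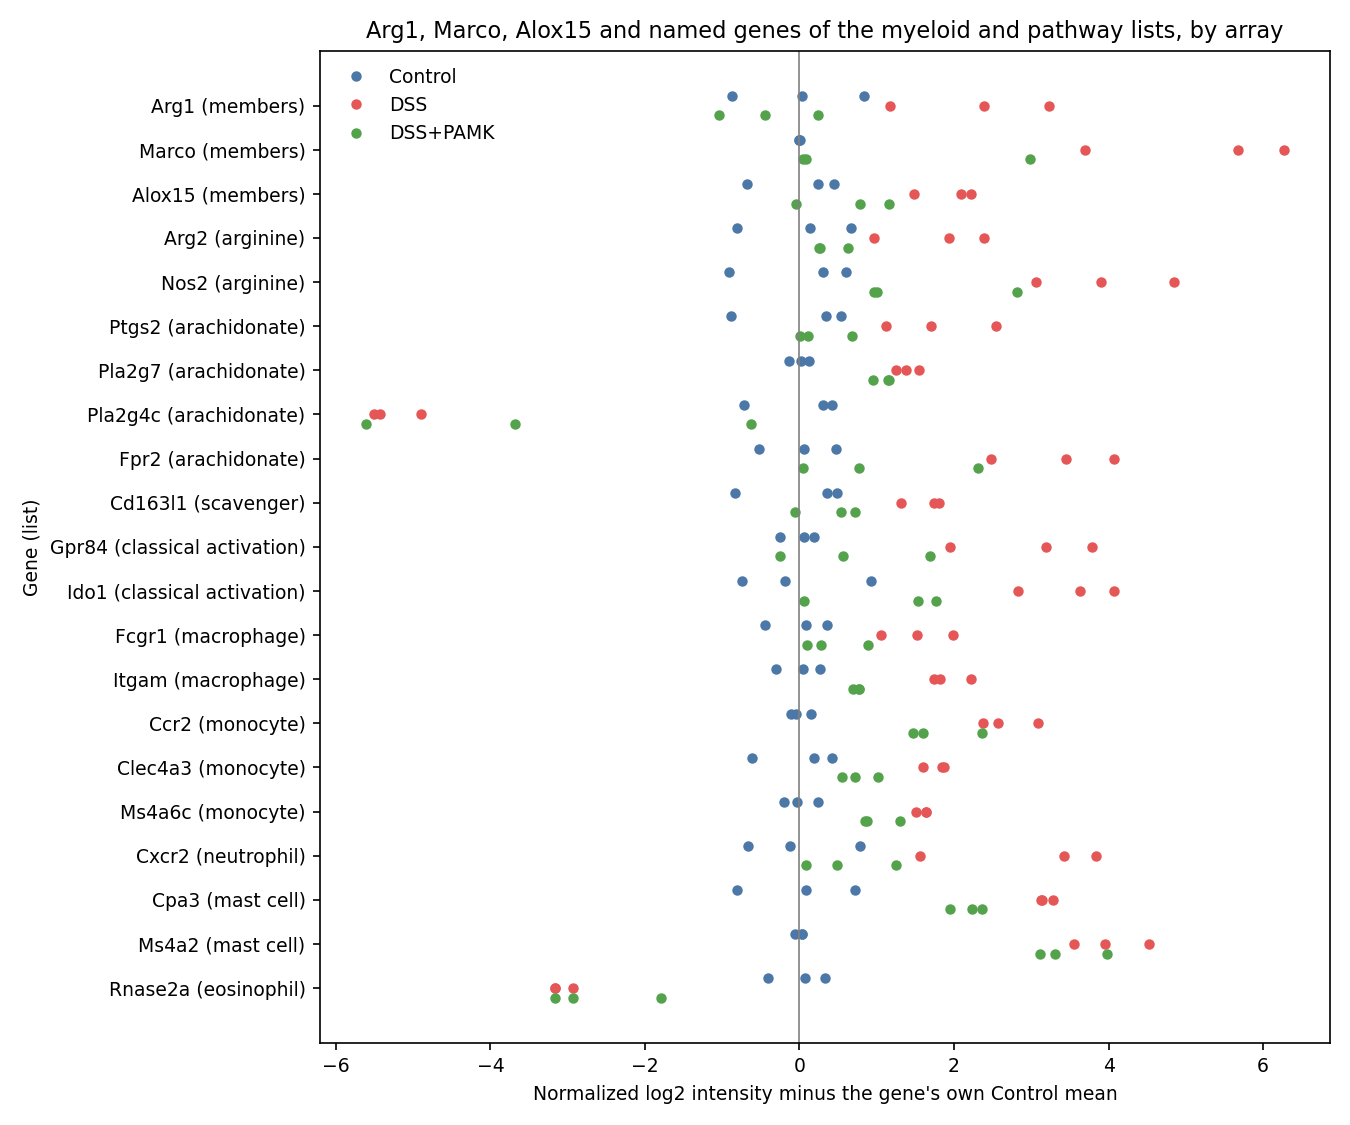
Normalized log2 intensity of each array minus the gene's own Control mean (x axis) for Arg1, Marco, Alox15 and the named genes of the pathway and myeloid marker lists (y axis, list in brackets), with 3 points per group. Points of Marco, Cxcr2, Ms4a2, Nos2 and Rnase2a include spots not well above background. The DSS+PAMK points lie among or near the Control points for Arg1, Arg2 and Ptgs2, and nearer to the DSS than to the Control points for Pla2g7, Ccr2, Cpa3 and Ms4a2. The study had listed Arg1, Arg2, Ptgs2 and Cpa3 for both comparisons with DSS, and Pla2g7, Ccr2 and Ms4a2 for DSS vs Control only.

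Few markers of myeloid cells could be matched, and they did not all move the same way. Their part in the levels of Arg1, Marco and Alox15 was not tested. Of the 16 macrophage markers Itgam and Fcgr1 could be matched, and both were called higher in DSS vs Control and lower in DSS+PAMK vs DSS. The study had listed both markers for both comparisons, so these calls follow from that listing. Itgam, an integrin of macrophages and neutrophils, was 3.88 to 4.45 in the Control group, 5.93 to 6.41 in the DSS group and 4.88 to 4.96 in the DSS+PAMK group. It differed by 1.93 in DSS vs Control (adjusted p = 0.0351) and by -1.19 in DSS+PAMK vs DSS. Fcgr1, the high affinity receptor for IgG, differed by 1.52 and -1.10.

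Of the 10 monocyte markers Ccr2, Clec4a3 and Ms4a6c could be matched, and all 3 were called higher in DSS vs Control, with a median of 1.77. In DSS+PAMK vs DSS 1 of the 3 was called lower, with a median of -0.86. The study had listed Clec4a3 for both comparisons, and Ccr2 and Ms4a6c for DSS vs Control only, so this count follows that listing. Ccr2, the chemokine receptor of recruited monocytes, differed by 2.68 in DSS vs Control (adjusted p = 0.0351) and by 1.82 in DSS+PAMK vs Control. Its second probe gave 2.59 and 1.79. Ms4a6c differed by 1.59 (adjusted p = 0.0351) and 1.01 in the same comparisons, and Clec4a3 by 1.77 and 0.76. For Arg1 and Alox15 the latter comparison gave -0.41 and 0.63, with overlapping groups. Arg1 and Alox15 were listed for a change in DSS+PAMK vs DSS as well, so this contrast with Ccr2 and Ms4a6c was partly chosen.

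The only match among 15 neutrophil markers was Cxcr2, the receptor for neutrophil chemokines. It was well above background on the 3 DSS arrays and on none of the other 6. Cxcr2 thus passed the filter on dim probes through the DSS group alone, so that its other values had to be lower. With dim values raised as for Marco, its DSS level was 3.35-fold that of Control and 2.32-fold that of DSS+PAMK. Of the 11 mast cell markers Cpa3 and Ms4a2 could be matched. Cpa3, a protease of mast cell granules, differed by 3.18 in DSS vs Control (adjusted p = 0.0351) and by 2.18 in DSS+PAMK vs Control, and in DSS+PAMK vs DSS it was called lower with a difference just at the 2-fold threshold. Ms4a2, the beta chain of the IgE receptor, was well above background on none of the Control arrays. It passed the filter on dim probes only through the DSS and DSS+PAMK groups, so that its Control values had to be lower. With dim values raised as for Marco, its DSS level was 4.56-fold and its DSS+PAMK level 3.13-fold that of Control.

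Of the 11 eosinophil markers only Rnase2a, a granule ribonuclease, could be matched. Its log2 level was 4.46, 4.72 and 3.97 on the Control arrays, and it was well above background on none of the DSS and DSS+PAMK arrays. With dim values raised as for Marco, the Control level was 1.92-fold that of DSS and 1.70-fold that of DSS+PAMK. Rnase2a passed the filter on dim probes through the Control group alone, so that its other values had to be lower, and no test is given. No marker of peritoneal macrophages or dendritic cells could be matched. Of the lists for other cell types, T or NK cells had 3 matches, colon epithelium 2 and pancreatic acinar cells 1, and B or plasma cells, fibroblasts, smooth muscle, endothelium, enteric neurons or glia and hepatocytes had none. Clps, the acinar match, fell from 14.18 in Control to 11.35 in DSS (adjusted p = 0.0392) and was 12.21 in DSS+PAMK. Fcgbp was 14.36, 12.75 and 13.83 in the 3 groups and Slc26a3 13.01, 12.58 and 13.69. Both means were lowest in the DSS group, but Slc26a3 was not called in DSS vs Control, where its arrays overlapped. The study had listed Clps and Fcgbp for DSS vs Control and Slc26a3 for DSS+PAMK vs DSS. Of the T or NK cell genes, Foxp3 and Gzmb were called higher and Nkg7 lower in DSS vs Control. The study had listed Foxp3 and Nkg7 for DSS vs Control and Gzmb for both comparisons, so these calls follow from that listing.

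The number of probes that followed each gene over the 9 arrays differed. Of 99521 probes with a value on every array, 433 had a Pearson's r of at least 0.9 with Marco, 224 with Arg1 and 40 with Alox15. Outside the DSS group the Marco values are surrogates except on DSS+PAMK 2, so every r with Marco rests partly on them. Among the named genes, those most like Arg1 were Mrgpra2b (r = 0.966), Saa3 (0.965), Cxcr2 (0.948), Slc13a3 (0.942) and Hp (0.938). Mrgpra2b was well above background on 1 Control array and on none of the DSS+PAMK arrays, and Cxcr2 on none outside the DSS group. Both passed the filter on dim probes through the DSS group alone, so their r with Arg1 rest partly on dim values. Saa3 and Hp encode the acute phase proteins serum amyloid A3 and haptoglobin. Saa3 differed by 1.87 in DSS vs Control and -2.36 in DSS+PAMK vs DSS, and Hp by 4.17 and -4.34.

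Those most like Marco were Gm49368 (r = 0.989), Fpr-rs6 (0.987), Gpr84 (0.985), Fpr3 (0.985) and Ifi204 (0.983). Fpr-rs6 and Fpr3 belong to the formyl peptide receptor family, as does Fpr2. Like Marco, Fpr-rs6 was well above background on none of the Control arrays and on all 3 DSS arrays. It also passed the filter on dim probes through the DSS group alone, so that its Control values had to be lower. With dim values raised as for Marco, its DSS level was 4.37-fold that of Control. For Alox15 they were Acat3 (r = 0.890), Rab44 (0.885), Kcne4 (0.880), Ifng (0.872) and Adamts3 (0.851). Ifng was well above background on all 3 DSS arrays and on none of the Control and DSS+PAMK arrays. It too passed the filter through the DSS group alone, so that its other values had to be lower. Rab44 differed by 2.42 in DSS vs Control (adjusted p = 0.0405) and by -1.16 in DSS+PAMK vs DSS. The short lists for Arg1, Marco and Alox15 had no gene in common, but this rests on where each was cut. Of those most like Arg1, Slc13a3 and Hp had a higher r with Marco (0.959 and 0.962). Mrgpra2b, Saa3 and Cxcr2 had a lower one (0.888, 0.820 and 0.942). Of those given for Alox15, Kcne4 had a higher r with Arg1 (0.921), and Ifng and Adamts3 with Marco (0.901 and 0.917). Acat3, Rab44 and those given for Marco had their highest r with their own gene. Separate companions for the 3 genes are thus not shown. The named genes were themselves listed for differences between these groups, so a high r with any of the 3 is partly a matter of how they were listed.

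**Figure D4:**
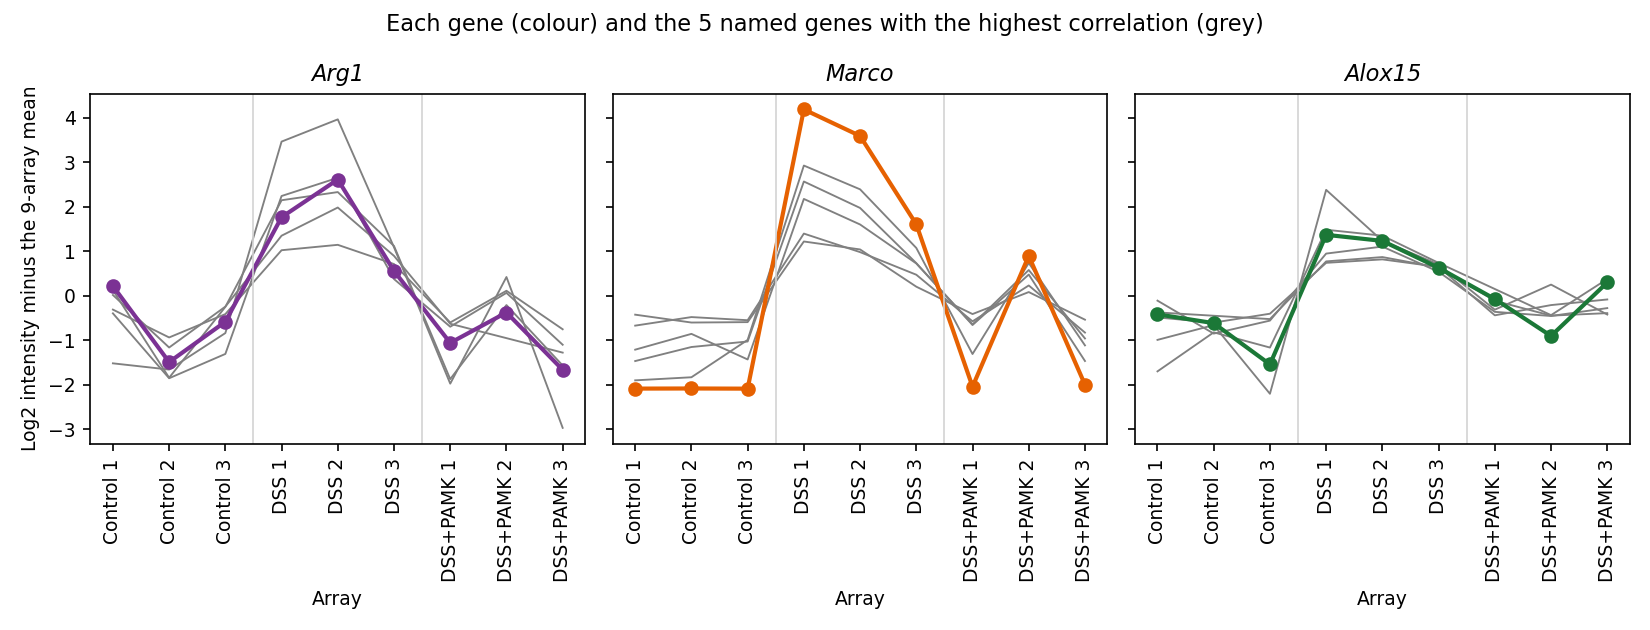
Log2 intensity minus the mean over 9 arrays (y axis) on each array (x axis) for Arg1, Marco and Alox15 (coloured) and, in grey, the 5 named genes with the highest Pearson's r with each. The grey lines follow the DSS 3 dip and the DSS+PAMK 2 peak of Marco, while the genes most like Alox15 do not go as low as it does on DSS+PAMK 2.

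The way the intensities were processed set the size of the Marco and Alox15 differences more than their direction. With the background corrected by normexp and an offset of 50 in place of the scanner software's correction, DSS minus Control was 1.51 for Marco and 0.86 for Alox15. In the same setting DSS+PAMK minus DSS was -1.31 for Marco and -0.67 for Alox15, while Arg1, the bright gene, kept differences of 2.18 and -2.52. Under quantile normalization, 75th percentile scaling, no scaling and normexp, the 3 DSS arrays remained above the other 6 arrays for each of the 3 genes. The genes were listed for these differences on the same arrays, so this order is no independent evidence.

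**Figure D5:**
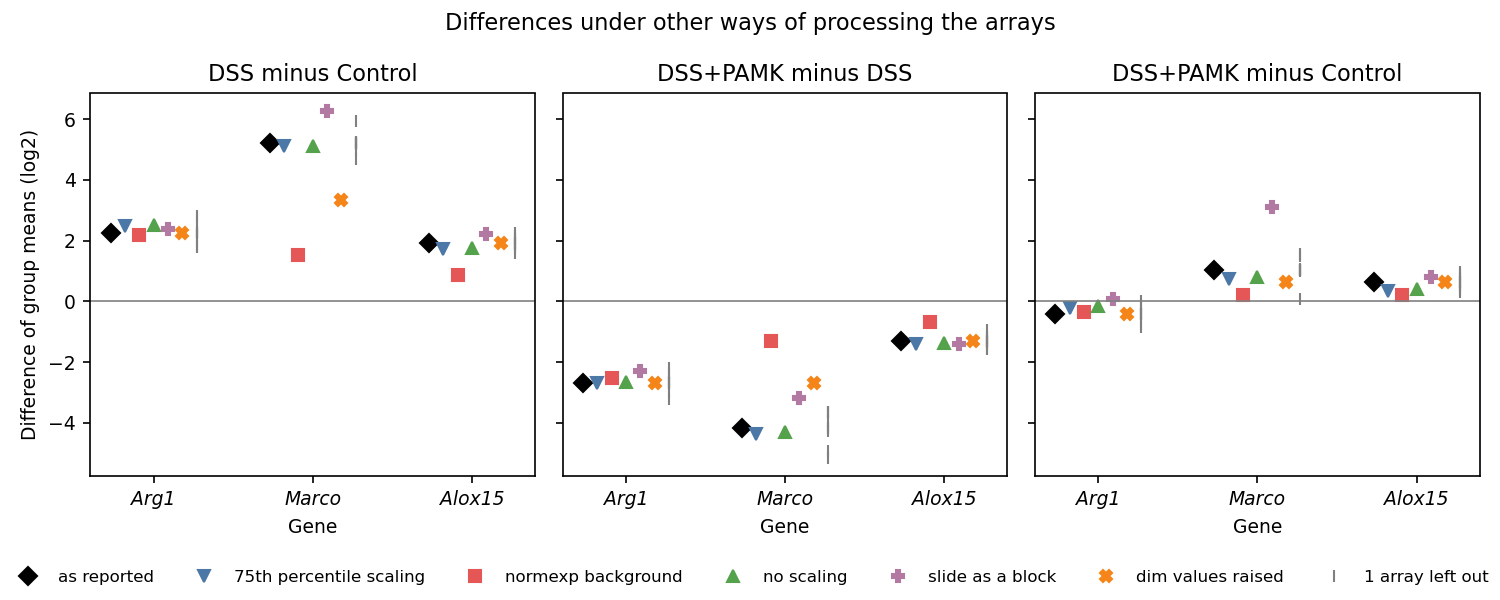
Difference of group means on the log2 scale (y axis) for Arg1, Marco and Alox15 (x axis) in the 3 comparisons (panels), as reported and under other ways of processing, with 1 mark for each of the 9 arrays left out in turn. In the first 2 panels no mark crosses 0, the normexp squares of Marco and Alox15 lie nearest to it, and in the third panel Arg1 has marks on both sides of 0.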

How the data were processed

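Colonic RNA of 9 mice, 3 per group by the labels, was labeled with Cy3 by the authors and hybridized to 1-color Agilent Mouse ceRNA arrays. The deposited intensities are the linear output of Agilent Feature Extraction 10.7.1.1 per spot, with background corrected and spots below background set to a surrogate value, which makes their ratios depend on that value. Normalization by the authors came later and was redone. Control spots and outlier spots were left out, log2 intensities were quantile normalized over the 9 arrays, and spots of a probe were averaged. Of 166924 probes, 99544 passed a filter, for which all arrays of 1 or more groups had to be well above background, and were fitted with limma 3.58.1 in R 4.3.3, with group means of all 9 arrays. Standard errors of Arg1, Marco and Alox15 are from the spread within groups. The script was tested on simulated data, in which 200 probes were changed. The number of arrays limits precision, and p-values measure the spread between these samples.

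The 3 genes, the 5 pathway lists and the 16 marker lists were chosen with earlier results of these data known. Symbols came from the study's sheets, which pair 183 probes with 176 symbols, and their fold changes and p-values were not used. Named were the 3 genes, Arg2 and Nos2 as relatives, per pathway or myeloid list the 2 called genes with the largest differences in each direction, and the 5 most like each gene by Pearson's r. Markers of other cell types are those that could be matched. Alternatives were other scalings, a normexp background, other filters, the methods' t-test, blocks for slide and replicate number, and each array left out. Replicate numbers did not pair arrays, with correlations of same-numbered deviations from -0.20 to 0.09.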

Additional observations from a re-analysis of the deposited data

How the results depend on the processing

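The differences of Arg1, Marco and Alox15 in DSS minus Control and in DSS+PAMK minus DSS kept their direction under all 15 alternatives. The study had listed the 3 genes for these same differences on these arrays, so the kept direction is no independent evidence. Normexp moved DSS minus Control to 1.51 for Marco and 0.86 for Alox15, DSS+PAMK minus DSS to -1.31 and -0.67, and the probes called to 614, 337 and 341 for DSS vs Control, DSS+PAMK vs DSS and DSS+PAMK vs Control, against 3043, 1698 and 2661 as reported. Raised dim values gave 3.32 for Marco in DSS minus Control. With slide as a fixed block Marco was 6.27 in DSS minus Control and 3.10 in DSS+PAMK minus Control, Arg1 turned to 0.0816 in DSS+PAMK minus Control, and 9849 and 10635 probes were called in the comparisons with Control.

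In the order DSS vs Control, DSS+PAMK vs DSS, DSS+PAMK vs Control, the probes called were 5472, 4462 and 5004 with no filter on dim probes, 1524, 687 and 1352 with the filter on all 9 arrays, 1906, 1019 and 1618 by the methods' t-test, and 175, 0 and 0 at an adjusted p of at most 0.05. In DSS+PAMK vs Control they were 5027 with 75th percentile scaling and 4124 with no scaling. The share of called probes that were higher was 64.6%, 37.8% and 61.9% as reported, 30.5%, 30.9% and 16.7% with 75th percentile scaling and 37.3%, 35.4% and 26.9% with no scaling, and the 75th percentile moved the median of all probes in DSS vs Control to -0.11. The cause was not tested.

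With arrays left out in turn, DSS minus Control was 1.78 to 2.80 for Arg1, 4.68 to 5.95 for Marco and 1.60 to 2.24 for Alox15. DSS+PAMK minus DSS was -3.21 to -2.19, -5.17 to -3.63 and -1.56 to -0.95. DSS+PAMK minus Control was -0.86 to 0.0042 for Arg1, with the sign turned without Control 1, 0.07 to 1.56 for Marco, lowest without DSS+PAMK 2, and 0.29 to 0.96 for Alox15. The probes called ranged from 2876 to 4831, from 1443 to 3899 and from 1839 to 6010, with the highest counts without DSS 2, DSS 2 and Control 2. With the replicate number as a block the differences of the 3 genes were the same by construction (2.26, 5.21 and 1.93 in DSS minus Control), and 2950, 1701 and 2703 probes were called, so the block changed no call by over 1.5 times. The calls of genes named for a pathway, a myeloid list or likeness, not of all 176 named genes, numbered 64 over the 3 comparisons. Of these 64 calls, 32 were lost under normexp, 12 with slide as a fixed block, 6 with no scaling, and 0 with the replicate block.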
